A study of Mus musculus with 4 samples.

Results

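The 9 genes described here set the fast transmitter of a spinal neuron: Slc17a6, Slc17a7, Slc17a8, Gad1, Gad2, Slc32a1, Slc6a5, Slc18a3 and Chat. They were chosen by name, and all 9 were found among the 32285 genes of each table. Nuclear RNA of single nuclei was counted (10x Genomics 3' chemistry) in 2 libraries of uninjured and 2 libraries of injured adult female mice, the injured ones taken 5 days after hemisection at C2. All 4 libraries came from Chx10Cre/+; ROSA26CAG-LSL-Sun1-sfGFP-Myc/+ animals, in which Cre expressed in the V2a lineage turns on a green nuclear envelope protein, and green nuclei were sorted. The cervical cord was taken from C1 to C8 without injury but from C3 to C8 after it, so segment range and injury cannot be told apart, and the labels do not say whether libraries came from separate animals.

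V2a neurons are excitatory interneurons of the ventral spinal cord. They load glutamate into vesicles with VGLUT2, the product of Slc17a6. Slc17a7 and Slc17a8 encode the related transporters VGLUT1 and VGLUT3. Gad1 and Gad2 make GABA, Slc6a5 is the plasma membrane glycine transporter of glycinergic neurons, and Slc32a1 loads GABA and glycine into vesicles. Chat makes acetylcholine and Slc18a3 loads it. Pax2, Lhx1 and Lhx5 were used here as factors of inhibitory neurons, and Lhx4 and Sox14 as factors of V2a cells.

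Slc17a6 lies on chromosome 7 (51622006 to 51671119, plus strand, GRCm38) and Gad1 on chromosome 2 (70553072 to 70602014, plus strand). The RefSeq GRCm38.p6 promoter windows, 250 bases before to 50 after a start, matched all 9 genes with 12 windows. A window of each of these 2 genes is shown because they mark the excitatory and the inhibitory nuclei of uninjured 2, where Slc17a6 was stored in 13.4% of 157 neuron-like nuclei with Gad1 and in 72.2% of those without. Slc17a6 had 2 windows, and the one with the motif is printed. Capitals mark TAATTA, a palindrome that many homeodomain factors bind, searched on both strands.
Slc17a6, chr7:51624387-51624686, plus strand: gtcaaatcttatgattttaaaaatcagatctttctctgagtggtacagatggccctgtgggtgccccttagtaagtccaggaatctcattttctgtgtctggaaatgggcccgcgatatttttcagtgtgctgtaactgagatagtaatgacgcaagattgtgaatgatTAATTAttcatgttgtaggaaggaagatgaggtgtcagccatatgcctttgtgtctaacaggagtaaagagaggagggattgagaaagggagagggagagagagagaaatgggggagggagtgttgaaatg
Gad1, chr2:70561879-70562178, plus strand: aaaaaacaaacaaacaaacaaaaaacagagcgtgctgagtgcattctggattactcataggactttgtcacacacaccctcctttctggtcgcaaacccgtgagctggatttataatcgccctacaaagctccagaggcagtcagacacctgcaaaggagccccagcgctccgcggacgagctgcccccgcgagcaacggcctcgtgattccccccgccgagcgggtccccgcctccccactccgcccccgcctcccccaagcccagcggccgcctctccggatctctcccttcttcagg
TAATTA stood in 2 of the 12 windows, 1 of the 2 of Slc17a6 and 1 of the 2 of Slc17a8, and in 5.29% of 32851 windows of all genes. A match is a description of the letters and not a binding site.

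The libraries held 569 and 2399 uninjured and 601 and 432 injured nuclei, with 2901680 to 13496025 counts and a median of 3512 to 10207 counts per nucleus. After filters 562, 2071, 561 and 389 nuclei were clustered with the 9 genes left out. Neuron-like nuclei numbered 543, 1243, 514 and 380. V2a-lineage neuron-like nuclei (519, 884, 461 and 335), in 10 clusters, stored Lhx4 in 48.5%. Inhibitory neuron-like nuclei (3, 115, 0 and 0), which stored Pax2 in 77.1%, and dorsal excitatory neuron-like nuclei (4, 220, 2 and 1), which stored Lmx1b in 58.1%, lay almost wholly in uninjured 2. A further neuron-like cluster (cluster 6, with 17, 24, 51 and 44 nuclei) was led by Nefl and Tubb3 and was given no lineage, since its median counts were 0.324 of those of its libraries and no V2a marker led it. Oligodendrocyte-like nuclei were 31.8% of uninjured 2 and 1.03% to 2.31% of the other libraries. The borders of these classes depended on the numerical kernel of the linear algebra library: the inhibitory class held 3, 115, 0 and 0 nuclei under 2 of the 3 kernels tried and 5, 204, 0 and 0 under the other, an alternative chosen after seeing the data. Uninjured 2 stood apart in its mix of nucleus classes, and the reason was not tested. Of all cell barcodes, 1 was shared by uninjured 1 and uninjured 2 and 1 by uninjured 2 and injured 1.

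The tables hold 2 readings of each gene. A stored entry is a gene and nucleus listed in the table, and 53.0% to 60.1% of those entries hold a 0. The names of the tables mention SoupX, which subtracts RNA free in the suspension, so a stored 0 was read as a detection that the subtraction emptied. That reading rests on the files alone. Intervals are exact 95% binomial intervals and cover counting error only.

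The 2 readings gave very different pictures of Slc17a6. A stored Slc17a6 entry was present in 476 of 543 (87.7%) and 805 of 1243 (64.8%) uninjured and in 393 of 514 (76.5%) and 306 of 380 (80.5%) injured neuron-like nuclei. A count remained in 9, 1, 0 and 58 of those nuclei, with sums of 36, 8, 0 and 135 counts. Only injured 2 kept a sizeable number, while injured 1 kept none. The stored shares overlapped between groups (76.2% ± 16.2 uninjured and 78.5% ± 2.88 injured, SD, n = 2 each; exact two-sided permutation p = 1.0). The 0 of 514 in injured 1 limits nuclei with a count to 0.584% (3 nuclei), and says nothing of nuclei that express the gene, since 393 of them stored it. Of its stored entries, Slc17a6 kept 1.89%, 0.124%, 0% and 18.9%. Genes stored in a like share of nuclei (within 1.5 times) kept a median of 64.4%, 51.9%, 63.0% and 61.8%, and 6.09%, 8.88%, 3.32% and 13.1% of those genes kept as little as Slc17a6 or less.

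**Figure D1:**
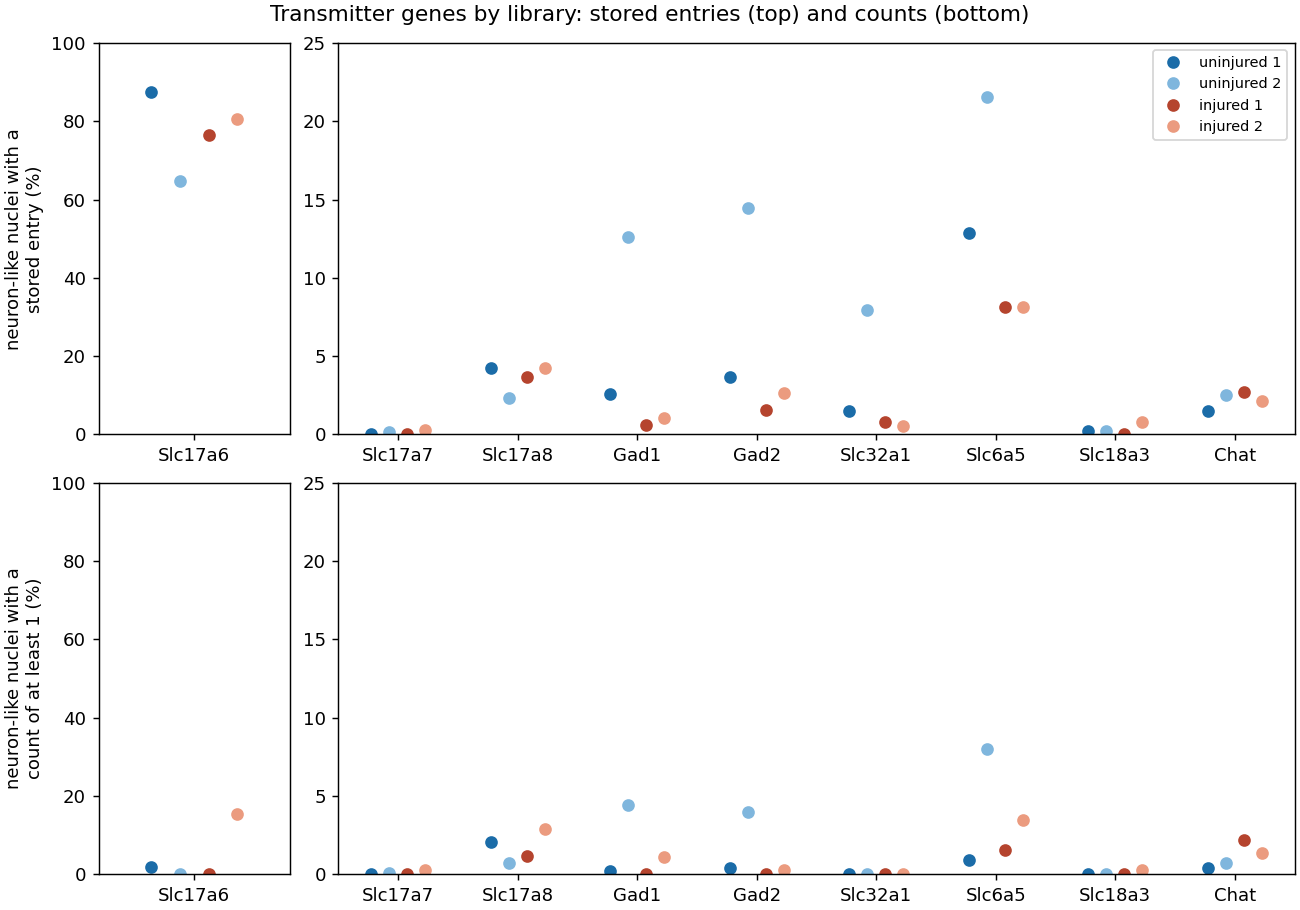
Percent of neuron-like nuclei with a stored entry (top) or a count of at least 1 (bottom) for each gene, 1 point per library, with Slc17a6 on its own axis at left. Slc17a6 sits at 64.8% to 87.7% by stored entries and at 0% to 15.3% by counts.

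The Slc17a6 counts that remained were unevenly placed. In uninjured 1, 30 of 36 counts lay in cluster 5, a V2a-lineage cluster with Sox14 and Lhx3 among its markers, and in uninjured 2 all 8 lay in 1 nucleus of that cluster. In injured 2 the 135 counts were spread over 9 clusters, with 33 in cluster 0. Nuclei with a count had a median of 4512 stored entries and nuclei with a stored 0 had 5022.5 in injured 2, and the same medians were 4752 and 5818 in uninjured 1.

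The other vesicular glutamate transporters were rare. Slc17a8 was stored in 23, 29, 19 and 16 neuron-like nuclei (4.24%, 2.33%, 3.70% and 4.21%), and kept 14, 11, 10 and 13 counts. In CPM, counts over library size, it stood at 1.98, 0.964, 2.58 and 4.56, and its stored shares overlapped between groups. The gene kept 31.0% to 68.8% of its entries, against 0% to 18.9% for Slc17a6. Slc17a7 was stored in 0, 2, 0 and 1 nuclei with 2 counts in all. Of nuclei with stored Slc17a8, 91.3%, 86.2%, 100% and 93.8% also stored Slc17a6, against 87.5%, 64.25%, 75.6% and 79.95% of those without. Nuclei with Slc17a8 were deeper (medians of 7096 and 5490.5 stored entries in uninjured 1). Both genes were stored in 21, 25, 19 and 15 nuclei. If independent within 5 bins of stored entries, 21.9, 21.1, 18.0 and 14.1 would have stored both.

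The inhibitory genes were found mostly in uninjured 2, also among V2a-lineage nuclei alone. Gad1 was stored in 14, 157, 3 and 4 neuron-like nuclei, with 5, 127, 0 and 4 counts. Gad2 was stored in 20, 180, 8 and 10 nuclei, with 2, 117, 0 and 4 counts. Slc6a5 was the most widespread of them, stored in 70 (12.9%), 268 (21.6%), 42 (8.17%) and 31 (8.16%) nuclei, with 17, 302, 12 and 17 counts. Both injured libraries lay below both uninjured ones in the stored share of each of these genes and of Slc32a1, with an exact permutation p = 0.333 for each. Most genes went the same way: of 13443 genes tested without depth matching, 12.1% were higher after injury. How many of all genes kept the groups apart was not counted. For Slc6a5 the means were 17.2% ± 6.13 uninjured and 8.16% ± 0.00919 injured (SD, n = 2 each). Once libraries were matched on depth, the groups overlapped for Gad2 (3.24%, 14.2%, 1.77% and 3.25%) and Slc6a5, and Gad1 stood at 2.09%, 12.2%, 0.43% and 1.13%. In V2a-lineage nuclei Gad1 was stored in 2.12%, 8.26%, 0.651% and 1.19%, Gad2 in 3.28%, 11.7%, 1.52% and 2.99%, and Slc6a5 in 12.9%, 21.5%, 8.46% and 8.06%. A lower share could reflect fewer nuclei of a kind or less RNA in each, which summed values cannot tell apart.

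Slc32a1 kept nothing of what was stored. It was stored in 8, 99, 4 and 2 neuron-like nuclei and kept 0 counts in every library, also over all 123 entries of the deposited nuclei. Of 2285 genes stored in a like share of the neuron-like nuclei of all libraries, 8.23% had no count, and within single libraries the share was 16.0% to 35.9%. By counts alone no nucleus of this series would hold the vesicular inhibitory transporter.

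The cholinergic genes were few. Chat was stored in 8, 31, 14 and 8 neuron-like nuclei, with 7, 24, 15 and 6 counts, and its libraries were not ordered by group. Slc18a3, which is nested in the Chat locus on the same strand, was stored in 1, 3, 0 and 3 nuclei with 1 count in all. Reads of the 2 genes may not be separable where they overlap. Gad1 overlaps the antisense gene Gad1os, which was itself stored in 9, 66, 1 and 2 neuron-like nuclei, and whether counting used strand is not given in the sources used here.

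Across clusters, Slc17a6 marked excitatory neurons of both kinds. It was stored in 70.7% (cluster 3) to 91.9% (cluster 5) of nuclei over the 10 V2a-lineage clusters, and in 34.6% of the shallow cluster 6, with 0 counts. The dorsal excitatory clusters stored Slc17a6 in 65.5% and 67.6% of nuclei with 0 counts. The inhibitory cluster stored it in 6 of 118 nuclei (5.08%, 1.89 to 10.7). With the kernel that gave the larger inhibitory class the share was 29.7%, so the low value holds for the smaller class.

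The inhibitory cluster stored Gad1 in 69.5%, Gad2 in 57.6%, Slc6a5 in 61.9% and Slc32a1 in 26.3% of nuclei. In the larger class of the other kernel Gad1 was stored in 45.5% and Slc6a5 in 44.5%. Counts were kept there for Gad1 (111), Gad2 (54) and Slc6a5 (60). Beyond it, Slc6a5 was stored in 24.9% of cluster 1 and 18.6% of cluster 0, both V2a-lineage. Cluster 3, named V2a-lineage but with Gad2 among its leading genes, held 63 Gad2 counts, all in uninjured 2, and 29 Chat counts. Gad1 was also stored in 9 of 33 oligodendrocyte precursor-like nuclei (27.3%, 13.3 to 45.5).

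**Figure D2:**
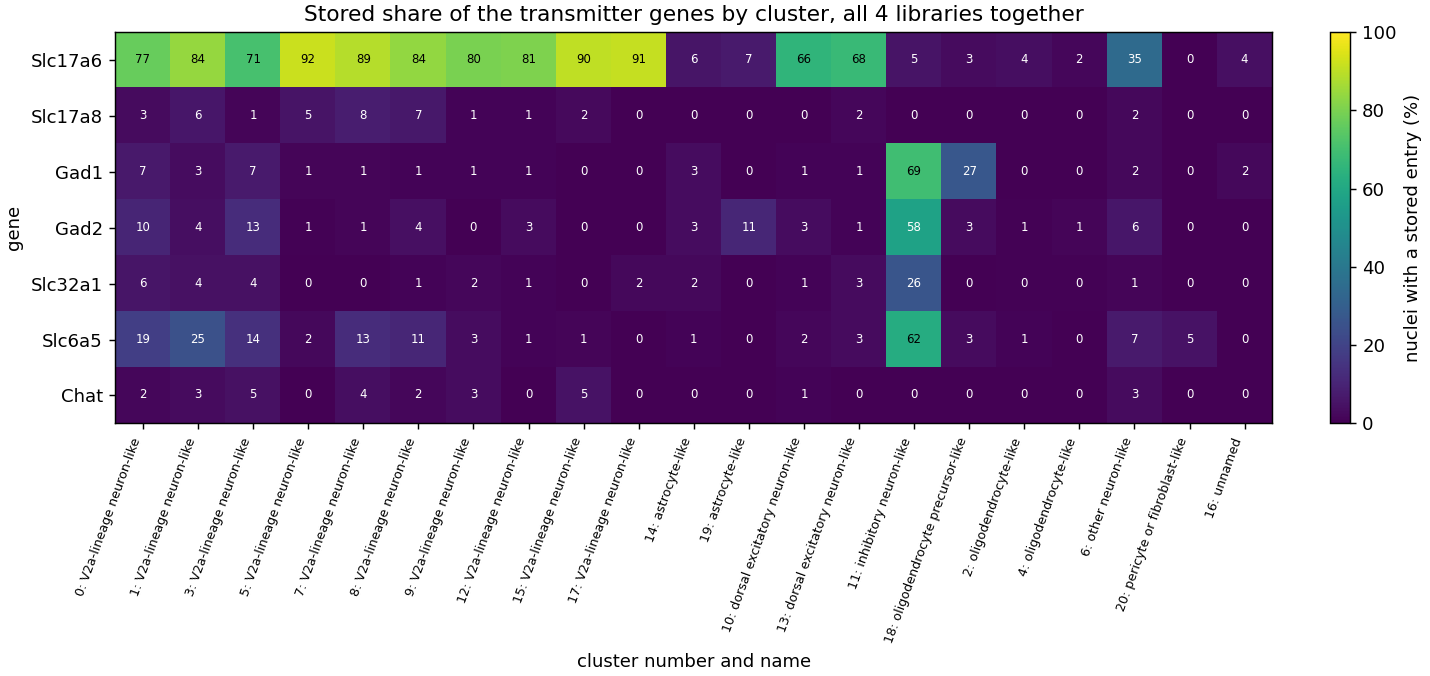
Percent of nuclei with a stored entry for 7 genes (rows) in 21 clusters (columns, grouped by name), all libraries together, with the percent written in each cell. Slc17a6 is high in the V2a-lineage and dorsal excitatory columns and at 5.08% in the inhibitory column, where Gad1 reaches 69.5%.

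Stored entries could come from free RNA, so neurons were set beside oligodendrocyte-like nuclei of 1000 to 4000 stored entries in uninjured 2, since the other libraries had 13 or fewer in all. Slc17a6 was stored in 19 of 655 oligodendrocyte-like nuclei (2.90%, 1.75 to 4.49) and in 87 of 159 V2a-lineage nuclei (54.7%, 46.6 to 62.6). Slc6a5 was stored in 0.763% and 12.6%, and Gad2 in 0.611% and 10.1%. The V2a-lineage nuclei remained deeper within that range, at a median of 3477 against 1654 stored entries. Inhibitory neuron-like nuclei of that library and range had a median of 3275.5 stored entries. They stored Slc17a6 in 2 of 54 nuclei (3.70%, 0.452 to 12.75). Stored zeros of genes from other cells were also common. Mbp, a myelin gene, was stored in 41.6%, 44.9%, 26.9% and 40.0% of V2a-lineage nuclei and kept 0 counts there, while oligodendrocyte-like nuclei of uninjured 2 kept a count in 98.9% of their Mbp entries. Snap25, a synaptic gene, was stored in 19.0% of those oligodendrocyte-like nuclei with 0 counts and kept 73.1% of its entries in V2a-lineage nuclei of that library. A stored entry alone therefore does not show that a nucleus expressed the gene. Slc17a6 entries were mostly empty, as those of Mbp were, and yet stood at very different shares in neurons and oligodendrocyte-like nuclei. How much of them was free RNA was not tested.

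The shares of Slc17a6 and Slc6a5 differed with depth. In uninjured 1, Slc17a6 was stored in 67.9% of V2a-lineage nuclei with 2000 to 4000 stored entries and in 98.6% of those with 6000 or more. The same 2 bins gave 68.0% and 97.8% in injured 1 and 66.7% and 97.5% in injured 2. In uninjured 2 they gave 55.6% and 83.3%, so of the 4 libraries only this one stayed below 90% in its deepest nuclei. Slc6a5 was also stored more often in deep nuclei, from 3.85% to 21.7% in uninjured 1 and from 4.07% to 20.7% in injured 1.

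**Figure D3:**
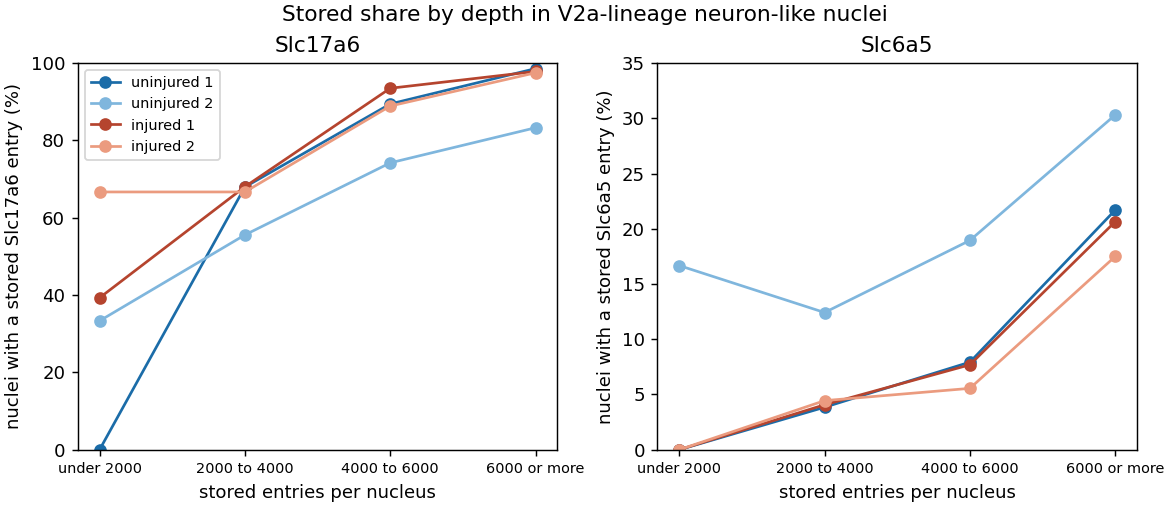
Percent of V2a-lineage neuron-like nuclei with a stored Slc17a6 (left) or Slc6a5 (right) entry, by bin of stored entries per nucleus, 1 line per library. In nuclei with 6000 or more entries Slc17a6 reaches 97.5% to 98.6% in 3 libraries and 83.3% in uninjured 2.

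Co-detection asked whether excitatory and inhibitory genes met in the same nucleus. By stored entries, 75 of 476 (15.8%) and 113 of 805 (14.0%) uninjured and 33 of 393 (8.40%) and 31 of 306 (10.1%) injured neuron-like nuclei with Slc17a6 also stored at least 1 of Gad1, Gad2, Slc32a1 and Slc6a5. If the genes were independent within 5 bins of stored entries, 82.9, 243, 41.6 and 35.6 nuclei would have stored both. Odds ratios within those bins were 0.232, 0.0673, 0.0858 and 0.294, below 1 in each library. These are descriptions with no test. In the share with both, the injured libraries lay below the uninjured ones by 5.63 percentage points (means of 9.26% and 14.9%). The exact two-sided permutation test over libraries gave p = 0.333, the smallest that 2 libraries against 2 allow. With nuclei matched in 10 bins of stored entries, an alternative chosen after seeing the data, the shares were 11.9%, 14.0%, 9.97% and 10.5%, and the difference shrank to -2.73 points.

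By counts there was almost nothing to compare. Of the nuclei with a Slc17a6 count, 0 of 9, 0 of 1 and 1 of 58 also had a count of an inhibitory gene, and injured 1 had no nucleus with a Slc17a6 count. Read that way, the sign of the difference turned, to 1.72 points. Inhibitory genes without Slc17a6 were found by counts in 1.47%, 12.9%, 1.56% and 3.95% of neuron-like nuclei, and Slc17a6 without inhibitory genes in 1.66%, 0.0805%, 0% and 15.0%. By stored entries Slc17a6 alone held 73.8%, 55.7%, 70.04% and 72.4%. Nuclei with none of these genes were 9.76%, 15.0%, 20.6% and 16.8% by stored entries and 96.9%, 87.1%, 98.4% and 80.8% by counts, so the stored zeros carry most of the transmitter reading in each library.

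**Figure D4:**
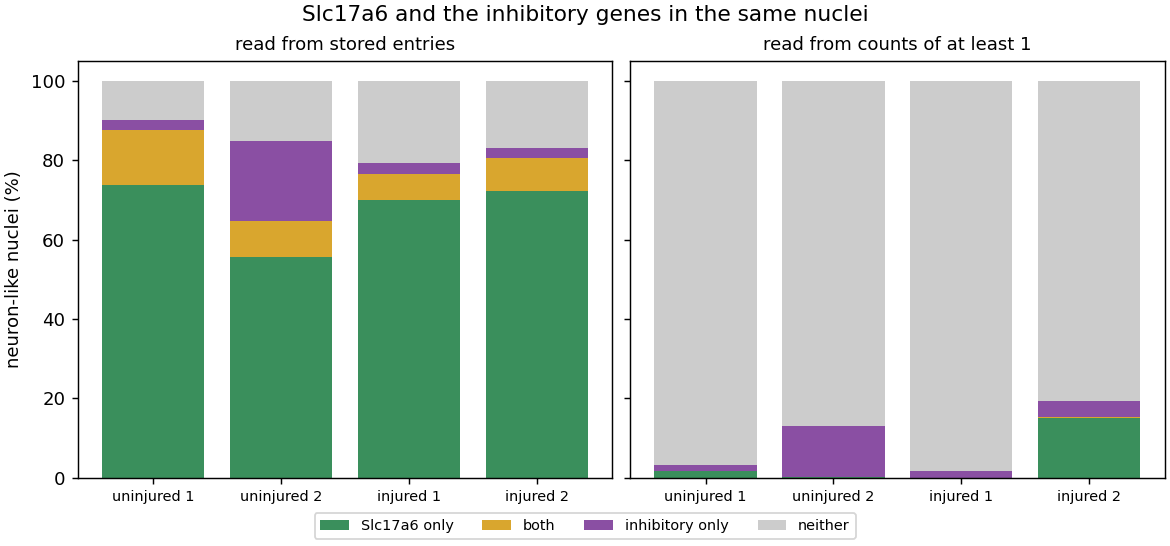
Stacked percent of neuron-like nuclei in each library with Slc17a6 only, an inhibitory gene only, both or neither, read from stored entries (left) and from counts of at least 1 (right). Nuclei with neither are 9.76% to 20.6% at left and 80.8% to 98.4% at right.

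Most nuclei with several inhibitory genes were in uninjured 2, and there they seldom stored Slc17a6. In V2a-lineage nuclei of uninjured 2, Slc17a6 was stored in 85.5% of 649 nuclei with none of the inhibitory genes, 65.8% of 114 with 1, 17.2% of 64 with 2, 15.0% of 40 with 3 and 23.5% of 17 with 4. Pax2 went the other way, from 2.31% with none to 64.1% with 2 and 82.4% with 4. In that library nuclei with 2 or more inhibitory genes thus mostly lacked Slc17a6 and stored an inhibitory-lineage factor, although they were clustered with V2a-lineage nuclei. The other libraries had 10, 5 and 5 such nuclei, of which 4, 2 and 3 stored Slc17a6, also below the shares with none. The intervals were 12.2 to 73.8 in uninjured 1, 5.27 to 85.3 in injured 1 and 14.7 to 94.7 in injured 2. Those of both injured libraries covered the share with none. In uninjured 2 the share with 2 or more was 17.4%, and 14.5% to 19.0% under the other clusterings. With 1 inhibitory gene Slc17a6 was stored in 93.2% of 74 nuclei of uninjured 1, 77.5% of 40 of injured 1 and 87.5% of 32 of injured 2. With none the shares in these libraries were 90.1%, 82.5% and 84.9%.

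Among V2a-lineage nuclei, Slc6a5 had the highest share of nuclei with Slc17a6 of the 4 inhibitory genes in each library, a difference that was not tested. Over all neuron-like nuclei this order did not hold in injured 2. There Slc17a6 was stored in 23 of 31 nuclei with Slc6a5, 8 of 10 with Gad2 and 3 of 4 with Gad1. Slc17a6 was stored in 85.1% of 67 V2a-lineage nuclei with Slc6a5 and 90.3% of 452 without in uninjured 1, in 79.5% of 39 and 81.8% of 422 in injured 1, and in 85.2% of 27 and 84.7% of 308 in injured 2. In uninjured 2 the shares were 37.4% of 190 and 83.6% of 694. Lhx4, a V2a factor, was stored in 76.1% of the Slc6a5 nuclei of uninjured 1 against 56.4% of the rest, and in 22.6% against 45.4% in uninjured 2. For Slc17a6 the intervals overlapped in uninjured 1 and both injured libraries. These shares are not matched on depth, and nuclei with Slc6a5 were deeper (medians of 6949 and 5488.5 stored entries in uninjured 1). In that library nuclei of 6000 or more entries stored Slc17a6 in 98.6%. Within bins of stored entries the odds of Slc17a6 were lower with Slc6a5 in each library. The odds ratios were 0.145 and 0.0565 in uninjured 1 and 2 and 0.188 and 0.427 in injured 1 and 2, with no test. Both genes were stored in 57, 71, 31 and 23 nuclei, against 63.8, 145, 35.4 and 24.8 if independent within bins. With Gad1, Gad2 and Slc32a1 Slc17a6 was stored in 7 of 11, 12 of 17 and 3 of 6 nuclei of uninjured 1. In injured 1 the numbers were 0 of 3, 3 of 7 and 1 of 4 nuclei, and in injured 2 they were 3 of 4, 8 of 10 and 0 of 2. Of nuclei with a single inhibitory gene, 77.0%, 68.4%, 85.0% and 71.9% had Slc6a5 as that gene.

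**Figure D5:**
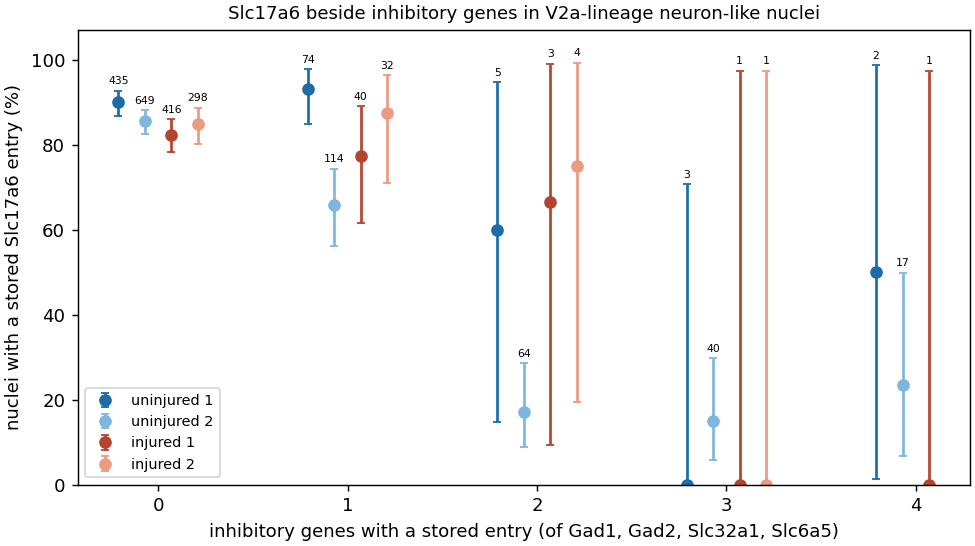
Percent of V2a-lineage neuron-like nuclei with a stored Slc17a6 entry by the number of inhibitory genes stored, with exact 95% intervals and the number of nuclei beside each point, 1 colour per library. Uninjured 2 goes from 85.5% to 17.2% between none and 2 genes, and the other libraries have 5 or fewer nuclei at each of 2, 3 and 4 genes.

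The injury comparison was tested in both readings. For summed counts of neuron-like nuclei, edgeR's quasi-likelihood test called 0 of 11315 genes (0%) at a Benjamini-Hochberg adjusted p under 0.05, with 251 genes at an unadjusted p under 0.05, and DESeq2 called 15. Of the 9 members 4 had counts enough to be tested. Slc17a6 stood at 5.10, 0.701, 0 and 47.3 CPM, a log2 difference of 3.04 with SE 2.45 (adjusted p = 0.998). Its groups overlapped, since injured 1 was the lowest library and injured 2 the highest. Without injured 2 the fitted difference turned to -7.33, a value that depends on the prior count.

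Slc6a5 stood at 2.41, 26.4, 3.10 and 5.96 CPM, a log2 difference of -1.81 with SE 1.33 (edgeR adjusted p = 0.998). The difference rested on uninjured 2, without which it was 0.95. Slc17a8 (log2 1.26, SE 0.96) and Chat (log2 0.87, SE 1.03) did not pass either. Gad1, Gad2, Slc32a1, Slc17a7 and Slc18a3 fell under the filter on low counts and were not tested.

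For stored shares matched in 10 bins of stored entries, limma called 82 of 13409 genes (0.612%), 11 higher and 71 lower after injury. Slc17a6 and Slc6a5 were the members stored widely enough to be tested. Slc17a6 was stored in 78.5% and 64.3% of matched uninjured and 85.8% and 81.4% of matched injured nuclei, a log2 odds difference of 0.995 with SE 0.335 (limma adjusted p = 0.153). The groups did not overlap, and how many of all genes kept them apart after matching was not counted. Without uninjured 2 the difference was 0.49, while without uninjured 1 it was 1.5. The latter sets uninjured 2 alone against 2 injured libraries, which give all of the spread. Slc6a5 was stored in 9.38%, 21.5%, 9.72% and 8.49%, a difference of -0.74 with SE 0.40 (adjusted p = 0.364). Its groups overlapped once depth was matched. The difference was -0.05 without uninjured 2 and -1.44 without uninjured 1, again with a single uninjured library.

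Limited to V2a-lineage nuclei, an alternative chosen after seeing the data, the stored-share test called 290 of 13697 genes (2.12%). Slc17a6 gave 0.87 (SE 0.37, limma adjusted p = 0.244), Slc17a8 0.77 (SE 0.41, adjusted p = 0.361) and Slc6a5 -0.66 (SE 0.35, adjusted p = 0.375). The matched Slc17a6 shares were then 85.4%, 71.8%, 89.5% and 85.4%. The fit without matching was run over all neuron-like nuclei and not over V2a-lineage nuclei alone. There the median difference of all genes was -0.50, so unmatched shares of most genes were lower in the injured libraries. Slc6a5 stood at -1.17 in that fit (limma adjusted p = 0.0339), where 6.33% of genes were called, 845 of 851 of them lower.

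Genes that handle these transmitters were counted from lists. No gene of the 7 lists passed in either test. For stored shares, 8 of 11 tested glutamate handling genes were higher and 3 lower after injury, with a median log2 odds of 0.19 against 0.02 for all genes, of which 52.8% were higher. Got1, an aspartate aminotransferase, was stored in 46.8%, 41.1%, 54.5% and 64.5% of matched nuclei (limma adjusted p = 0.092). Slc1a6, a neuronal glutamate transporter, was stored in 35.01%, 40.6%, 31.2% and 27.5% (adjusted p = 0.218). The groups did not overlap for either gene, and how many of all genes kept them apart was not counted.

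Of GABA handling genes 2 of 4 tested were higher and 2 lower by stored share. Slc6a11, the GABA transporter GAT3, was stored in 7.20%, 9.04%, 4.33% and 2.71% of matched nuclei (limma adjusted p = 0.112), and Abat, which degrades GABA, in 73.0%, 76.6%, 76.3% and 76.1%. All 4 tested glycine handling genes had positive differences, with a median of 0.42, and none passed. Gcsh, a subunit of the glycine cleavage system, was stored in 10.2%, 12.2%, 16.2% and 16.3% (adjusted p = 0.219), Shmt2 in 5.17%, 6.45%, 8.47% and 8.38%, and Amt in 16.7%, 18.8%, 21.8% and 18.5%, with overlapping groups.

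All 3 tested acetylcholine handling genes were higher by stored share, with a median of 0.12. Ache, which degrades acetylcholine, was stored in 46.5%, 42.5%, 56.4% and 54.8% (limma adjusted p = 0.126). Slc5a7, the choline transporter, had 3.83, 4.12, 1.29 and 2.10 CPM, and Prima1, which anchors Ache, 9.21, 3.07, 12.4 and 8.42 CPM. Of monoamine identity genes 1 of 2 was higher. Slc18a2, the vesicular monoamine transporter, was stored in 23.7%, 23.9%, 16.5% and 12.1% (adjusted p = 0.094), Slc18a1 in 4.92%, 6.11%, 7.63% and 8.25%, and Ddc had 2.27, 0, 2.07 and 0 CPM.

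Among lineage factors Lhx1 was stored in 10.8%, 13.9%, 7.04% and 6.56% of matched nuclei (limma adjusted p = 0.126). It was the only inhibitory-lineage factor tested by stored share, and was also a marker of cluster 12, named V2a-lineage. Pax2 had 1.98, 18.8, 1.55 and 0 CPM, the highest value again in uninjured 2. Of 4 excitatory-lineage factors 3 had positive differences, and 2 without uninjured 2. Shox2 was stored in 23.2%, 14.8%, 25.01% and 28.2%, and Sox14 in 27.5%, 11.5%, 24.2% and 28.7%. Uninjured 2 was lowest for both. Without it the log2 odds difference went from 0.66 to 0.27 for Shox2 and from 0.69 to -0.08 for Sox14, and the part that its mixture of cell classes plays was not tested.

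Over 21 clusters, the genes whose stored share was most like that of Slc17a6 were Cacna2d1, Ano5 and Zdhhc22 (Pearson r = 0.97, 0.97 and 0.95), among 17023 genes. For Slc17a8 they were 9230117E06Rik, Gm29570 and Car7 (0.90 each). For Gad1 they were Mhrt, Pax8 and Shisa8 (0.96, 0.94 and 0.93), for Gad2 Gm27199, 1700039E22Rik and Pax2 (0.99, 0.98 and 0.98), for Slc32a1 Gm14204, Gm20395 and Neurod6 (0.99, 0.98 and 0.98), and for Slc6a5 Gm14204, Neurod6 and Slc32a1 (0.94, 0.94 and 0.93). Slc17a6 and Gad1 had r = -0.325. The clusters share libraries and differ in depth, so these are descriptions.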

How the data were processed

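Single-nucleus RNA was measured in 4 libraries. The deposited matrices hold whole-number counts of unique molecular identifiers per gene and nucleus, and the tools listed for them are Cell Ranger and Seurat 5.0.0, with build mm10, per the submitters' processing notes. SoupX appears in the names of the deposited tables, with no settings stated there. Total counts per library were 7128996, 13496025, 3982267 and 2901680.

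Nuclei in which under 500 genes had a count (6, 324, 38 and 39) and Scrublet doublets (1, 4, 2 and 4, run through scanpy 1.11.5) were left out. The mitochondrial limit of 5% removed none. These doublet calls are 0.31% of the nuclei over the minimum, too few to show that the caller worked. Clusters came from Seurat 5.3.0 (canonical correlation analysis, 2000 variable genes, 30 dimensions, resolution 0.5). A marker counted at 4-fold over other nuclei with a stored entry in 5% of the cluster, and a name needed 3 markers. A V2a name needed 3 V2a markers stored in 5% and, in a cluster of very low depth (cluster 6), 1 among its 10 leading genes; this last condition was applied after results had been seen. Neurons needed 3 pan-neuronal markers at 100 CPM.

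Counts were summed per library over neuron-like nuclei, since nuclei are not replicates, and tested with edgeR 4.0.16 (TMM scaling, SE taken from the F statistic). Stored shares were tested as a log2 odds with limma 3.58.1 for genes stored in 5% of nuclei in 2 libraries. Both were checked on simulated data with 200 genes changed by a log2 of 2: edgeR recovered 97% among 11202 genes, and limma 100% among 13392. False calls numbered 6 and 5. The simulated spread between libraries was a fixed value and was not estimated from these libraries. Recovery thus shows that the steps ran, and does not measure the power of the tests here. The p-values rest on how far these libraries vary, and that variation may be technical. The members and lists were chosen with earlier results of these data known. Named list genes are up to 3 per list by smallest p in either test, and the genes most like a member are the 3 with the highest r over clusters of at least 20 nuclei. Some genes that this rule names are not reported here. Alternatives are given in the closing section.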

Additional observations from a re-analysis of the deposited data

How the results depend on the processing

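The 0 genes called from summed counts became 15 with DESeq2 and 93 with no filter on low counts, and ranged from 0 to 189 when 1 library was left out (189 without uninjured 1, 0 without each other library). With the replicate number as a block, the count stayed at 0 for summed counts and went to 195 for stored shares, and no member passed. The numbers are not known to pair the libraries: deviations of same-numbered libraries correlated at -0.084 for counts and -0.004 for stored shares. The 82 genes called from stored shares became 851 without depth matching, 349 with 5 bins, 28 over all nuclei over the gene minimum and 290 in V2a-lineage nuclei, and ranged from 28 to 843 when 1 library was left out (375, 261, 843 and 28 without uninjured 1, uninjured 2, injured 1 and injured 2). The cause was not tested. In summed counts Slc17a6 ranged from -7.334 (without injured 2) to 4.854 (without uninjured 1) and Slc6a5 from -2.704 (without uninjured 1) to 0.953 (without uninjured 2). The co-detection difference turned from -5.63 to 1.72 points when detection meant a count, and kept its sign in the other alternatives, from -6.50 to -2.73. Slc17a6 entries with at least 2 counts were 11.4% of those stored in injured 2. At resolution 1.0, and with the members allowed among the variable genes, nuclei moved between clusters (adjusted Rand index 0.746 and 0.741). V2a-lineage nuclei stored Slc17a6 in 78.07% and 78.11% against 80.8%, and 136 nuclei changed class in each, the number in cluster 6, so the name given to that cluster moves with the clustering. With other numerical kernels, chosen after seeing the data, the index was 0.591 and 0.541 and 31 and 100 nuclei changed class. The second of these moved the inhibitory class, from 5.08% to 29.67% for Slc17a6, from 69.5% to 45.45% for Gad1 and from 61.9% to 44.5% for Slc6a5. With 2 libraries a group, the exact test over libraries cannot go below 0.333.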
